A study of Homo sapiens with 4 samples.

Results

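The 10 genes described here encode the enzymes and scaffold of the ATG conjugation machinery, the ubiquitin-like system that attaches LC3 to the autophagosome membrane. They were chosen by gene name, namely ATG7, ATG10, ATG3, ATG12, ATG5, ATG16L1, ATG4A, ATG4B, ATG4C and ATG4D, out of 31907 gene names counted in the series. All 10 had counts in every library. RNA was sequenced from HGC-27, a line of human gastric cancer (GC) cells, in 4 libraries: 2 from cells given PBS and 2 from cells given 200 ng/ml recombinant IL-17B (rIL-17B), each harvested at 48 h. The labels give no genetic change in either group. Nothing in them says that the replicates were separate cultures, so p-values measure only the spread between these libraries, which may be technical. The library protocol in the labels speaks of monocytes, whereas the cell line is given as HGC-27 for every sample.

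Autophagosomes form when LC3 and its relatives of the ATG8 family are joined to the lipid phosphatidylethanolamine. ATG7 is the E1 enzyme that activates both ATG8 proteins and ATG12. ATG10 then passes ATG12 to ATG5, and ATG3 passes ATG8 proteins to the lipid. The ATG12-ATG5 conjugate binds ATG16L1 and directs the lipid transfer. The ATG4 proteases trim newly made ATG8 proteins and remove them from membranes again. In the study, conversion of LC3 was followed as a sign of autophagy and ATG7 was silenced in another GC line. From its sequencing of rIL-17B-treated HGC-27 cells, the paper reports no significantly altered gene with a direct link to autophagy. The question here is whether the mRNAs of this machinery differed between rIL-17B- and PBS-treated HGC-27 cells.

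The libraries held between 12888029 and 17555879 counts. The deposited counts were divided by the library total and scaled to CPM, a level relative to the whole library, and 3 counts, taken as the smallest level that can be shown, correspond to between 0.171 and 0.233 CPM. This floor and all intervals of single libraries cover counting error only, with every read taken as independent. PCR copies were counted as separate reads, so these intervals may be too narrow. rIL-17B replicate 1 stood apart from the other libraries. In it 342 genes had at most 3 counts but 100 or more in all 3 remaining libraries, and the same count was 0 for each of those. FN1, which encodes fibronectin, was at 149 CPM there and between 27450 and 33131 CPM elsewhere, and COL1A2, a collagen chain, was at 1.09 CPM there and between 4699 and 5516 CPM elsewhere. Whether its cells were the same as those of the other libraries was not tested, and every rIL-17B mean and every fit that keeps this library rests on it. Relative to the PBS mean, 21.2% of 16361 tested genes were at least 2-fold away in rIL-17B replicate 1, compared with 0.636% in the other rIL-17B library, with 0.5 CPM added to each value. The 6 epithelial markers summed to 784 and 792 CPM in the PBS libraries, 1825 CPM in rIL-17B replicate 1 and 1007 CPM in the other rIL-17B library, and KRT8 and KRT18 made up most of each sum. KRT19 went the other way in rIL-17B replicate 1, at 0.068 CPM (1 count) beside 2.96 to 3.34 CPM elsewhere, and CLDN4 was at 6.64 CPM there beside 6.73 and 8.38 CPM with PBS. The sum of 9 mesenchymal markers, all 9 above 3 counts in every library, was between 42561 and 50896 CPM in the others and 978 CPM there. The 7 monocyte markers summed to between 8.55 and 10.4 CPM. CD68 was at 0 in the PBS libraries, and PTPRC, LYZ, ITGAM and FCGR3A were at 0 in rIL-17B replicate 1. CSF1R, the highest of the 7 in every library, went the other way. It was at 3.90 and 5.59 CPM with PBS and at 8.14 and 6.15 CPM with rIL-17B, so it made up most of the sum in rIL-17B replicate 1. Of the gastric differentiation markers TFF1, TFF2, MUC5AC, MUC6, GKN1 and PGC, the sum was at most 2.72 CPM, with TFF1 and PGC at 0 in every library. Some neural and glial markers were lower in both rIL-17B libraries, namely NES (220 and 345 CPM under PBS against 16.1 and 162 CPM), OLIG2 (39.9 and 67.4 against 0 and 29.3 CPM) and MAP2 (57.3 and 77.2 against 31.5 and 44.3 CPM), while SOX10 was at 0 throughout. The part of these differences in the results below was not tested, and fold changes of the members are given with and without each rIL-17B library. In bulk RNA, fewer cells of a type and less RNA per cell cannot be told apart.

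None of the 10 genes differed between rIL-17B and PBS at an adjusted p of 0.05 (quasi-likelihood test of edgeR, Benjamini-Hochberg adjustment over all genes), and their adjusted p values lay between 0.661 and 0.896. The share of all 16361 tested genes that passed was 0%. At an unadjusted p under 0.05 the count was 0 of the 10 genes and 226 of all genes (1.38%), and DESeq2 gave 0 of the 10 genes beside 1.71% of 31907 genes. At an adjusted p under 0.05 DESeq2 called 0 genes. In CPM, 4 genes had each rIL-17B library above each PBS library (ATG7, ATG16L1, ATG5 and ATG4A), where 31.5% of all tested genes did the same. 2 genes, ATG12 and ATG4B, were lower in both, where 27.5% of all tested genes did the same. The groups were thus apart for 6 of the 10 genes, beside 59% of all tested genes. With TMM-normalized CPM the same 4 were higher and the same 2 lower, beside 28.5% and 30.4% of all tested genes (58.9% in all). With 2 libraries against 2, an exact permutation test cannot give a two-sided p under 0.333, and none is given for single genes.

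**Figure D1:**
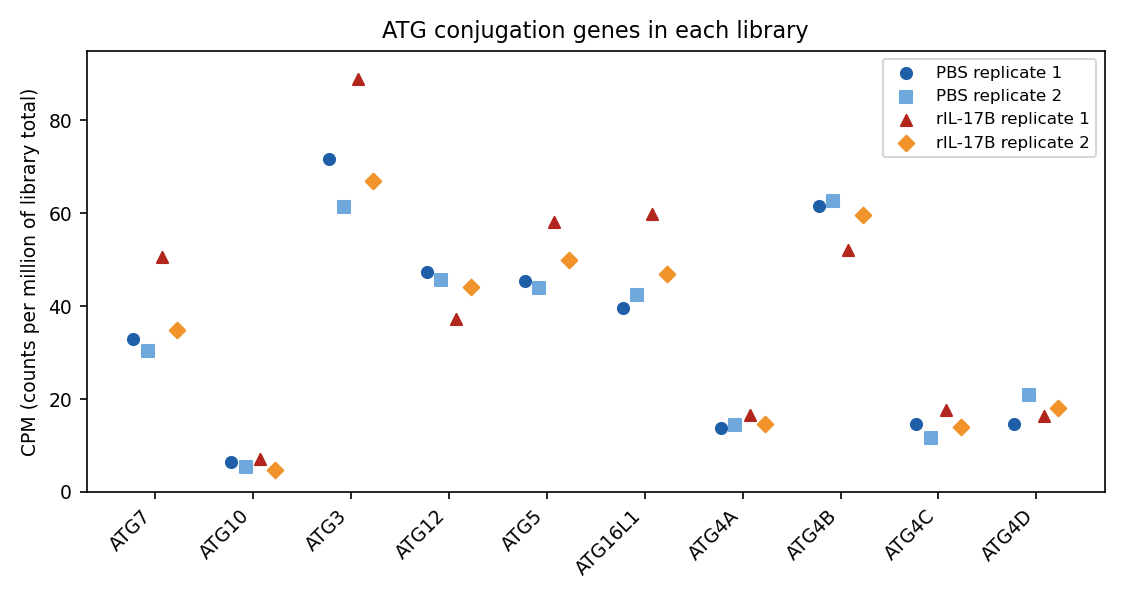
CPM (counts relative to the library total) of the 10 ATG conjugation genes, ordered by role, with one point per library. rIL-17B replicate 1 is the highest library for ATG7 (50.7 CPM), ATG16L1 (59.8 CPM) and ATG3 (88.9 CPM) and the lowest for ATG12 (37.2 CPM) and ATG4B (52.0 CPM).

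ATG7, the E1 enzyme at the head of both conjugation branches, measured 33.0 and 30.3 CPM under PBS, and 50.7 and 35.0 CPM under rIL-17B. Both rIL-17B libraries lay above both PBS libraries, but the 2 rIL-17B libraries differed more from each other than rIL-17B replicate 2 differed from either PBS library. Mean levels were 31.7 ± 1.89 CPM for PBS and 42.8 ± 11.1 CPM for rIL-17B (SD over n = 2 libraries in each group). The log2 fold change in edgeR was 0.35 (standard error 0.19, 95% interval -0.19 to 0.89, adjusted p = 0.661). Without rIL-17B replicate 1 it was 0.14 (standard error 0.12, edgeR adjusted p = 0.699), and without rIL-17B replicate 2 it was 0.54 (standard error 0.12, edgeR adjusted p = 1.19e-05). Every fit that leaves out an rIL-17B library, here and below, sets a single rIL-17B library against PBS. Such a fit assumes that this library varies like the PBS libraries. ATG7 spans 285357 bases of the plus strand of chromosome 3 (11272309 to 11557665, GENCODE 29 on GRCh38). Its promoter window is shown because ATG7 had the highest fold change of the 10 genes. The window (RefSeq, GRCh38.p14, plus strand) covers chr3:11272147-11272446, from 250 bases before to 50 after the start site, and capitals mark a match to the motif of NRF1 (in 9.04% of the windows of tested genes), at -69 from the start site, and one to CCGGAAG, the core bound by ETS factors, at 18.
ATG7: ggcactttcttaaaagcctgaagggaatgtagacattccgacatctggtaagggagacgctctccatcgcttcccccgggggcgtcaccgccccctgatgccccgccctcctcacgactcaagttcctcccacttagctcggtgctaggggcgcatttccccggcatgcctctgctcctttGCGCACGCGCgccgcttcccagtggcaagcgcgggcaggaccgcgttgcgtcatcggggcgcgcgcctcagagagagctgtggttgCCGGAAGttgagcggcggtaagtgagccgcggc

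The E2 enzymes differed widely in level. ATG3, which hands ATG8 proteins to phosphatidylethanolamine, showed 71.7 and 61.3 CPM without the cytokine, then 88.9 and 66.9 CPM with it. rIL-17B replicate 2 fell between the PBS libraries, so the groups overlapped. In edgeR the log2 fold change was 0.15 (standard error 0.16, edgeR adjusted p = 0.693), 0.00078 without rIL-17B replicate 1 and 0.28 without rIL-17B replicate 2 (standard error 0.10, edgeR adjusted p = 0.00979). ATG10, which hands ATG12 to ATG5, was at 6.54 and 5.35 CPM in the PBS pair, against 7.18 and 4.78 CPM after rIL-17B, from 69 to 105 counts. Here the rIL-17B libraries were the highest and the lowest of the 4, with PBS in between. Its log2 fold change was -0.075 (standard error 0.30, 95% interval -0.95 to 0.80, edgeR adjusted p = 0.896), and its sign turned to 0.13 without rIL-17B replicate 2 and to 0.0075 without TMM normalization. Per length of the merged exons, the level of ATG3 over that of ATG10 was 9.77 and 10.2 in the PBS libraries and 11.0 and 12.5 in the rIL-17B libraries.

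ATG12 is the ubiquitin-like protein of the first branch. It measured 47.5 and 45.5 CPM under PBS, and 37.2 and 44.1 CPM under rIL-17B, and both rIL-17B libraries lay below both PBS libraries. The log2 fold change was -0.26 (standard error 0.17, 95% interval -0.75 to 0.23, edgeR adjusted p = 0.661). Without rIL-17B replicate 1 it was -0.082 (edgeR adjusted p = 0.830), and without rIL-17B replicate 2 it was -0.46 (edgeR adjusted p = 0.000245). ATG12 had the lowest fold change of the 10 genes, and its promoter window is shown for that reason. The window covers chr5:115841516-115841815 on the minus strand (RefSeq, GRCh38.p14), with a match to ATGGCGG, part of the motif of YY1, in capitals at 14 from the start site.
ATG12: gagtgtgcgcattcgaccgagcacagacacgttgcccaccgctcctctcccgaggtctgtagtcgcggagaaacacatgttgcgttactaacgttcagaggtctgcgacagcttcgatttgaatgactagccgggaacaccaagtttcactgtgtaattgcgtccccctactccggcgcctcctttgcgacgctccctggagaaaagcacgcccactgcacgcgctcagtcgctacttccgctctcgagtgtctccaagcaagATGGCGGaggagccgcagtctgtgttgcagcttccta

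ATG5, the acceptor of ATG12, showed 45.5 and 43.8 CPM without the cytokine, then 58.2 and 49.8 CPM with it. Both rIL-17B libraries were higher than both PBS libraries. In edgeR the log2 fold change was 0.20 (standard error 0.10, 95% interval -0.093 to 0.49, edgeR adjusted p = 0.661), 0.15 without rIL-17B replicate 1 (edgeR adjusted p = 0.591) and 0.24 without rIL-17B replicate 2 (edgeR adjusted p = 0.0467). It was the member whose fold change depended least on which rIL-17B library was kept among the 6 genes that passed without rIL-17B replicate 2. ATG16L1, the scaffold that brings the conjugate to the membrane, was at 39.7 and 42.4 CPM in the PBS pair, against 59.8 and 46.9 CPM after rIL-17B, again without overlap. Its log2 fold change was 0.30 (standard error 0.13, 95% interval -0.065 to 0.67, edgeR adjusted p = 0.661), with the smallest unadjusted p of the 10 genes, 0.0825. It was 0.19 without rIL-17B replicate 1 (edgeR adjusted p = 0.468) and 0.41 without rIL-17B replicate 2 (edgeR adjusted p = 0.000542). The ATG16L1 promoter window is shown because ATG16L1 had the smallest p of the members. It covers chr2:233251423-233251722 on the plus strand (RefSeq, GRCh38.p14), and capitals mark CCGGAAG, found 3 times over both strands at -124, -40 and -5 from the start site. This RefSeq start lies inside the longer gene span of GENCODE 29.
ATG16L1: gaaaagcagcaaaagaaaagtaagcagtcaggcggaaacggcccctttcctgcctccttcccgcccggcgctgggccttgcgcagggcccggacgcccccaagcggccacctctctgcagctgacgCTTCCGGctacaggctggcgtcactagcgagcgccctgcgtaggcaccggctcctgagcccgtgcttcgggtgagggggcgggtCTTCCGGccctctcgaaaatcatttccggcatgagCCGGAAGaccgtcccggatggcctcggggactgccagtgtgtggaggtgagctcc

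In CPM, ATG12 lay below PBS in both rIL-17B libraries, as did 27.5% of all tested genes. ATG5 and ATG16L1 lay above PBS in both, as did 31.5% of all tested genes. None of these mRNAs of the ATG12-ATG5-ATG16L1 complex passed the edgeR test with all 4 libraries. Per length of the merged exons, the ratio of ATG12 to ATG5 was 0.664 and 0.661 in the PBS libraries. It was 0.407 in the first rIL-17B library and 0.563 in the other. Both rIL-17B libraries lay below both PBS libraries, which had to follow from ATG12 being lower and ATG5 higher in both. The ratio of ATG16L1 to ATG5 was 0.816 and 0.904 with PBS and 0.962 and 0.880 with rIL-17B, and these groups overlapped. Such ratios within a library do not depend on its scaling. They were chosen after the values had been seen and were given no test.

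The ATG4 proteases were led by ATG4B, the form known to act on the widest range of ATG8 proteins. ATG4B measured 61.6 and 62.6 CPM under PBS, and 52.0 and 59.6 CPM under rIL-17B, both rIL-17B libraries below both PBS libraries. Its log2 fold change was -0.22 (standard error 0.15, 95% interval -0.65 to 0.22, edgeR adjusted p = 0.661), -0.063 without rIL-17B replicate 1 (edgeR adjusted p = 0.869) and -0.39 without rIL-17B replicate 2 (edgeR adjusted p = 0.000706). ATG4A, a close relative of ATG4B, showed 13.8 and 14.5 CPM without the cytokine, then 16.6 and 14.6 CPM with it. The groups did not overlap, but rIL-17B replicate 2 exceeded PBS replicate 2 by less than the PBS libraries differed from each other. The log2 fold change of ATG4A was 0.065 (standard error 0.15, edgeR adjusted p = 0.824), with 0.045 and 0.089 without rIL-17B replicates 1 and 2. ATG4C was at 14.7 and 11.6 CPM in the PBS pair, against 17.7 and 13.9 CPM after rIL-17B, with overlapping groups. Its edgeR fold change on the log2 scale was 0.19 (standard error 0.22, edgeR adjusted p = 0.707), with 0.069 and 0.28 without rIL-17B replicates 1 and 2. ATG4D measured 14.6 and 20.9 CPM under PBS, and 16.4 and 18.0 CPM under rIL-17B, so that the PBS libraries were the lowest and the highest of the 4. Its log2 fold change was -0.11 (standard error 0.25, edgeR adjusted p = 0.814) and turned to 0.16 without PBS replicate 2 and to 0.024 without rIL-17B replicate 1, while it was -0.24 without rIL-17B replicate 2.

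Within the family, ATG4B took 58.8% of the ATG4 counts in PBS replicate 1 (Wilson 95% interval 56.4% to 61.1%), 57.1% in PBS replicate 2 (54.5% to 59.7%), 50.7% in rIL-17B replicate 1 (48.1% to 53.2%) and 56.1% in rIL-17B replicate 2 (53.9% to 58.4%). Its share was lowest in rIL-17B replicate 1, where the interval ended below those of the other 3 libraries. ATG4D took 14.0% (12.4% to 15.7%) and 19.1% (17.1% to 21.2%) of the ATG4 counts in the PBS libraries. The intervals of these replicates of one group did not overlap. All these intervals treat PCR copies as separate reads and may be too narrow. Per length of the merged exons, ATG4B held 36.9% and 34.5% of the family with PBS and 29.7% and 34.1% with rIL-17B, and ATG4D came second with between 25.6% and 33.7%. The share per length of ATG4A was between 18.2% and 21.4%, and that of ATG4C between 13.6% and 21.5%.

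**Figure D2:**
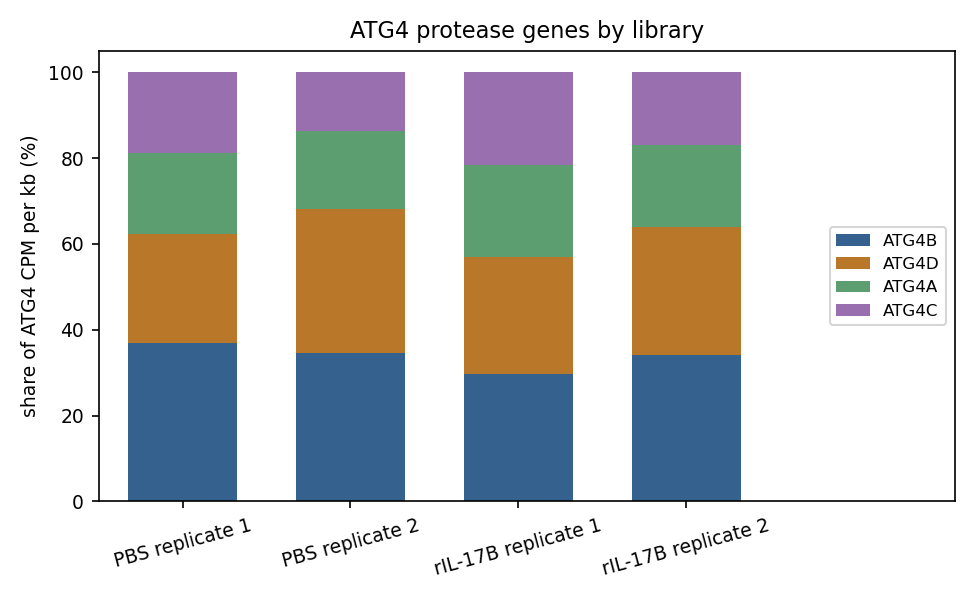
Share of each ATG4 gene in the summed ATG4 CPM per kb of merged exons, in percent, with one bar per library. ATG4B is the largest part of every bar, from 29.7% in rIL-17B replicate 1 to 36.9% in PBS replicate 1, and ATG4D is the second.

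Between genes, levels were compared as CPM per kb of merged exons. ATG3 was the highest of the 10 genes, with 11.8 ± 1.95 CPM per kb (SD, n = 4 libraries), and its 4 libraries lay above all libraries of ATG4B, the next in order. ATG4B (8.88 ± 0.722), ATG5 (8.72 ± 1.13), ATG16L1 (7.80 ± 1.48) and ATG4D (7.68 ± 1.17 CPM per kb) followed, and each overlapped its neighbour in the order. All libraries of ATG4D lay above those of ATG4A (5.09 ± 0.400 CPM per kb). ATG4A, ATG12 (4.90 ± 0.502), ATG4C (4.65 ± 0.809) and ATG7 (4.22 ± 1.04 CPM per kb) overlapped in turn. ATG10 was lowest, with 1.09 ± 0.201 CPM per kb, and all of its libraries lay below those of ATG7. Among all tested genes with a known length, ATG3 exceeded 76.7% and ATG10 exceeded 24.5%, and the other 8 genes lay between 51.3% and 70.2%. With the length of the longest coding transcript, a choice made after seeing the data, ATG3, ATG4B, ATG5, ATG16L1 and ATG10 kept their places, while ATG12 moved from place 7 to 5 and ATG7 from 9 to 7. Merged exons count 8888 bases for ATG12 and 8833 for ATG7, more than for any other member.

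**Figure D3:**
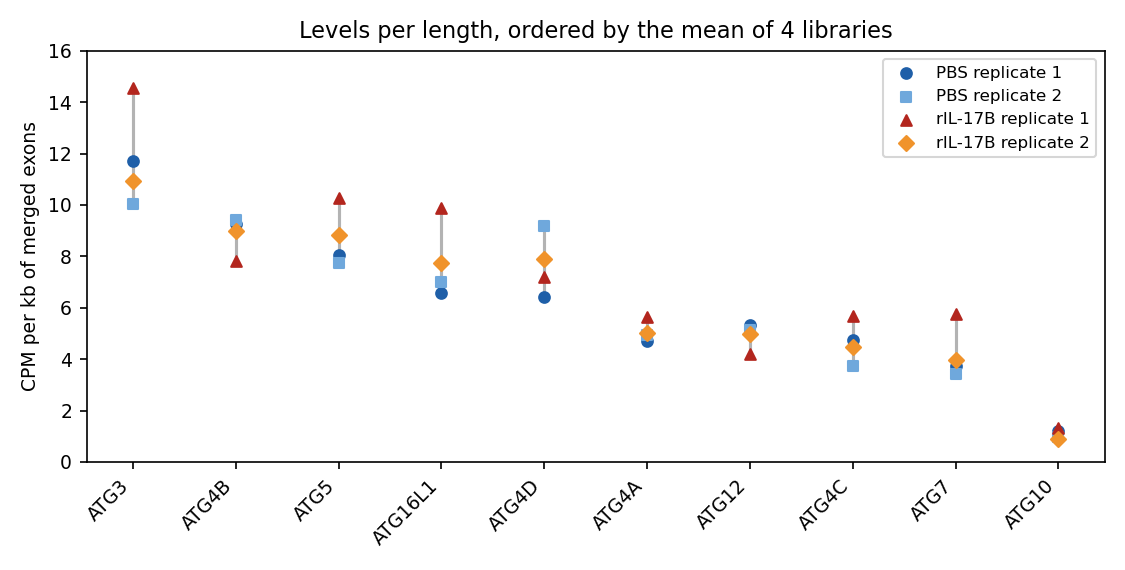
CPM per kb of merged exons for the 10 genes, ordered by the mean of the 4 libraries, with one point per library and a grey line from the lowest to the highest. ATG3 spans 10.03 to 14.5 and ATG10 spans 0.878 to 1.32 CPM per kb, and neither range touches that of its neighbour.

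The fits that leave out one rIL-17B library gave different counts. Each sets a single rIL-17B library against PBS, so its p-values do not measure the spread between rIL-17B libraries. Without rIL-17B replicate 2, 4 genes rose (ATG7, ATG16L1, ATG3 and ATG5) and 2 fell, ATG12 and ATG4B (edgeR, adjusted p under 0.05), where 23.2% of 17223 tested genes rose and 31.9% fell. The 6 of 10 stand beside 55.1% of all genes in that fit. Without rIL-17B replicate 1, 0 of the 10 genes passed, also at an unadjusted p under 0.05, while 2.95% of 17103 tested genes did so at an adjusted p under 0.05 (0.643% higher and 2.3% lower, and 13.7% at an unadjusted p). Leaving out either PBS library gave 0 of 10 genes and 0% of all genes, and at an unadjusted p under 0.05 still 0 of 10 genes beside 0.0117% of all genes. Without rIL-17B replicate 2 the unadjusted count was again 6 of 10, beside 58.8%.

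**Figure D4:**
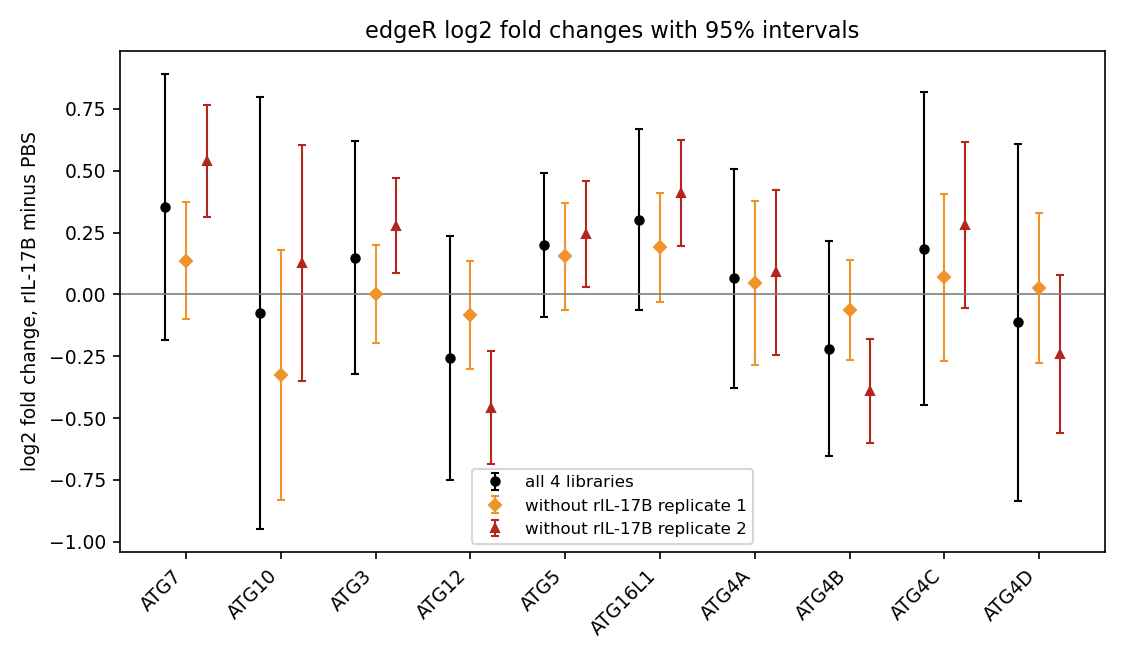
edgeR log2 fold change (rIL-17B minus PBS) of each gene with its 95% interval, for all 4 libraries and without either rIL-17B library. Without rIL-17B replicate 2 the intervals of ATG7, ATG3, ATG12, ATG5, ATG16L1 and ATG4B leave 0, and without rIL-17B replicate 1 all 10 intervals include 0.

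The 10 genes were also set against a 2-fold limit, and whether they differ from other genes in this was not tested. None was 2-fold from the PBS mean in rIL-17B replicate 1, where 2.61% of all tested genes were 2-fold higher and 18.6% were 2-fold lower, nor in rIL-17B replicate 2, where 0.0611% were higher and 0.575% lower. On TMM-normalized CPM the count was again 0 of 10 in each library, beside 20.9% (0.996% higher and 19.9% lower) and 0.642% (0.0672% higher) of all tested genes. Their log2 ratios to the PBS mean in rIL-17B replicate 1 lay between -0.32 for ATG12 and 0.67 for ATG7, with a median of 0.32 beside 0.082 for all tested genes (0.5 CPM added to each value). The middle 90% of all tested genes spanned -3.28 to 0.89. In rIL-17B replicate 2 the 10 ratios lay between -0.29 for ATG10 and 0.19 for ATG16L1, with a median of 0.030 beside -0.0013 for all tested genes. In each rIL-17B library 7 of the 10 genes were above the PBS mean and 3 below, beside 54.7% of all tested genes above it in replicate 1 and 49.8% in replicate 2. The scaling matters for the size of these values. With TMM-normalized CPM the median of all tested genes in rIL-17B replicate 1 moved down by 0.13 to -0.044 and that of the 10 genes to 0.18, and all 20 signs, of 10 genes in 2 libraries, stayed as they were. The counts of the 10 genes summed to 349 and 338 CPM with PBS and to 405 and 354 CPM with rIL-17B.

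**Figure D5:**
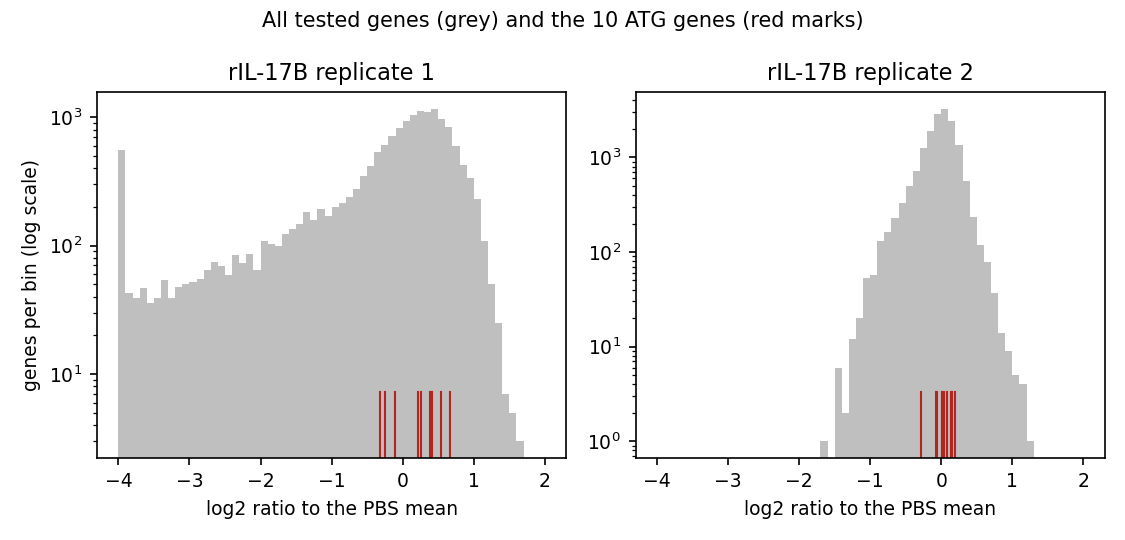
Distribution over 16361 tested genes of the log2 ratio of CPM to that of PBS (grey, gene number per bin on a log scale) in each rIL-17B library, with red marks at the 10 ATG genes. Values below -4, 517 genes for replicate 1 and 0 for replicate 2, are drawn in the first bin, and the red marks sit between -0.32 and 0.67 and between -0.29 and 0.19.

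In GENCODE 29 on GRCh38, ATG3 lies at chr3:112532509-112562046, ATG5 at chr6:106045423-106325791 and ATG12 at chr5:115828200-115841858, all on the minus strand. The others are on the plus strand, ATG10 at chr5:81972025-82276857, ATG16L1 at chr2:233210051-233295674, ATG4A at chrX:108091668-108154671, ATG4B at chr2:241637213-241673857, ATG4C at chr1:62784135-62865513 and ATG4D at chr19:10543895-10553418. The surroundings bear on what the counts of some members can show, because the use of strand in counting is not given in the sources used here. 6 of the 10 genes share exonic bases with another annotated gene, all 6 with a protein-coding gene on the opposite strand. ATG7 shares 1596 bases (18.1% of its merged exons) with VGLL4, ATG4D shares 341 bases (14.97%) with KRI1 and ATG10 shares 374 bases (6.86%) with RPS23. At their starts, ATG12 shares 378 bases (4.25%) with AP3S1, ATG4B 237 bases (3.57%) with THAP4 and ATG3 151 bases (2.47%) with SLC35A5. ATG4A shares none, but it starts 50 bases from the divergent gene PSMD10. VGLL4, the partner of ATG7, showed 1177 and 1126 counts without the cytokine, then 862 and 1283 counts with it. KRI1, the partner of ATG4D, had 816 and 718 counts with PBS and 1205 and 928 with rIL-17B. RPS23, the partner of ATG10, had 1232 and 941 counts with PBS and 834 and 1280 with rIL-17B. AP3S1, the partner of ATG12, was at 972 and 703 counts in the PBS pair, against 713 and 1027 counts after rIL-17B. ATG5, ATG16L1, ATG4C and ATG4A share no exonic base with another gene. The processed pseudogenes ATG3P1, ATG12P2 and ATG4AP1 had 0 counts in every library.

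Promoter windows were found for 9 of the 10 genes, all except ATG4D, and ATG5 had 2 start sites. CCGGAAG was present on either strand in 5 of the 9 genes (ATG3, ATG4C, ATG5, ATG7 and ATG16L1), beside 15.5% of the promoter windows of all tested genes and 10.3% of all windows. In CPM, ATG5, ATG7 and ATG16L1 of these were higher in both rIL-17B libraries and the groups overlapped for ATG3 and ATG4C. ATG4A, whose window has no CCGGAAG, was higher in both too, as were 31.5% of all tested genes. ATGGCGG was present in ATG4B, ATG5 and ATG12, beside 8.53% of the windows of tested genes. CACGTG, the E-box bound by TFEB and related factors, was present in ATG3 only among the 9 genes, beside 8.93% of the windows of tested genes. The ATG3 window is shown for these 2 matches, at -18 and 6 from the start site. It covers chr3:112561913-112562212 on the minus strand (RefSeq, GRCh38.p14), and capitals mark CACGTG and a CCGGAAG pair that overlaps on both strands. These matches describe the sequence and were not tested as sites.
ATG3: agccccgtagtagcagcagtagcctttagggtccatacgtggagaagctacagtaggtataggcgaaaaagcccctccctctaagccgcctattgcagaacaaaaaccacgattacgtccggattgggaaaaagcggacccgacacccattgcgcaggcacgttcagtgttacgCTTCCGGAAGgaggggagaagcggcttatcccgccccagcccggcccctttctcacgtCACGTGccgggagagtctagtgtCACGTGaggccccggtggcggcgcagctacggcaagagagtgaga

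The substrates of the machinery, 7 genes of the ATG8 family, were compared in the same fit. 5 were tested and 0 passed an adjusted p of 0.05, with a median log2 fold change of -0.59 beside -0.030 for all tested genes and 0.11 for the 10 conjugation genes. Over the same 5 genes the median was -0.11 without rIL-17B replicate 1 and -1.25 without rIL-17B replicate 2, where the 10 conjugation genes had 0.034 and 0.19. Without rIL-17B replicate 2, 4 of 6 tested ATG8 genes passed as lower (MAP1LC3A, MAP1LC3B, GABARAPL1 and GABARAP, the last on few reads), beside 31.9% of all genes (edgeR, adjusted p under 0.05). Without rIL-17B replicate 1 the count was 0 of 6. GABARAPL2, an ATG8 protein of the GABARAP branch, measured 51.4 and 50.4 CPM under PBS, and 52.5 and 55.2 CPM under rIL-17B. GABARAPL1 of the same branch showed 108 and 94.0 CPM without the cytokine, then 93.7 and 106 CPM with it. MAP1LC3B, the LC3 gene most used as a marker of autophagosomes, was at 144 and 130 CPM in the PBS pair, against 63.4 and 125 CPM after rIL-17B, and MAP1LC3A measured 11.8 and 11.0 CPM under PBS, and 0.889 and 10.6 CPM under rIL-17B. For both LC3 genes rIL-17B replicate 1 was the lowest library. MAP1LC3B2, whose reads could be split with its near copy MAP1LC3B, had few counts. They were 27 and 22 (1.70 and 1.71 CPM) with PBS and 11 and 18 (0.753 and 1.03 CPM) with rIL-17B. GABARAP was counted at only 7 and 13 reads with PBS and at 1 and 1 with rIL-17B. It shares 30.5% of its merged exons with the locus AC120057.2 on the same strand and 25.2% with AC120057.3 on the other, both at 0 in every library, and its level is given as a count alone. MAP1LC3C had at most 3 counts.

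ATG16L2, the relative of ATG16L1, showed 17.4 and 18.8 CPM without the cytokine, then 15.1 and 18.0 CPM with it. The groups overlapped, and the log2 fold change was -0.19 (standard error 0.20, edgeR adjusted p = 0.689). It was -0.0066 without rIL-17B replicate 1 and -0.39 without rIL-17B replicate 2 (edgeR adjusted p = 0.0345). Of the 11 genes that recruit or assist the conjugation complex (ATG16L2, WIPI1, WIPI2, WDR45, WDR45B, RB1CC1, ATG2A, ATG2B, ATG9A, TECPR1 and RAB33B), 0 passed, with 4 higher and 7 lower and a median log2 fold change of -0.11. Of 9 cargo receptors that bind LC3, 0 passed, with 2 higher and 7 lower and a median of -0.12. Without rIL-17B replicate 2, 3 of the 11 rose and 5 fell, and 1 of the 9 rose and 6 fell (edgeR, adjusted p under 0.05), in a fit where 55.1% of all genes passed. Without rIL-17B replicate 1 the count was 0 in both lists, and the medians were -0.020 and -0.0037.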

How the data were processed

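Counts per gene name were analysed for 4 Smart-seq2 libraries of HGC-27 cells (oligo-dT primed, PCR amplified). The authors deposited raw counts, without normalization, and the submitters' processing notes name hg38, Bowtie2 2.2.3, HISAT2 2.1.0, TopHat2 and HTSeq 0.6.0 without their roles. The annotation and strand setting are not given in the sources used here. Each file lists expressed genes alone, and absent names were taken as 0. Names repeated with one count were used once, and 22 to 25 date-like names per library (0.228% to 0.244% of counts) were left out. Totals were then between 12888029 and 17555879 counts. CPM used these totals.

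Tests used edgeR 4.0.16 in R 4.3.3 with TMM normalization (factors 0.97 to 1.07), filterByExpr, the quasi-likelihood F test over 16361 genes and Benjamini-Hochberg adjustment. The standard error is the size of the log2 fold change divided by the square root of F. Alternatives were DESeq2 1.42.0, upper-quartile normalization, library totals alone, no filter, at least 10 counts in every library, a replicate block and leaving out each library. Lengths and coordinates came from GENCODE 29, in which 97.8% of names were found once. Figures were drawn with matplotlib 3.10.9 in Python 3.11.15. The members and lists were chosen with earlier results of these data known. All 10 members are named, with ATG8 genes and ATG16L2 where they bear on them. Other lists are given by counts. The results of one further gene list and the summed level of one marker list are not reported here.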

Additional observations from a re-analysis of the deposited data

How the results depend on the processing

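The count of members past an adjusted p of 0.05 was 0 with all 4 libraries, with DESeq2, with upper-quartile normalization, with library totals alone, with every gene kept, with a minimum of 10 counts per library and with a replicate block, and the count of all genes was 0 in each of these. Leaving out one library gave between 0 and 6 members and between 0 and 9489 genes, with 504 genes without rIL-17B replicate 1 and 9489 without rIL-17B replicate 2. The number of members whose groups did not overlap was 6 with TMM-normalized CPM too, and 0 members were 2-fold from the PBS mean in either rIL-17B library with TMM-normalized CPM, with no CPM added or with 1 CPM added. Of 60 log2 fold changes of members under the other settings, 59 kept their sign and side of the threshold. The exception was ATG10, which turned from -0.075 to 0.0075 with library totals alone. GABARAPL2 turned from 0.014 to -0.024 with a minimum of 10 counts per library, and the cause was not tested. With one library left out the value lay between -0.34 and 0.16 for ATG4D, between -0.33 and 0.13 for ATG10, between -0.25 and 0.054 for GABARAPL1 and between -0.091 and 0.11 for GABARAPL2. Without length, the mean share of the ATG4 counts was 55.7% for ATG4B, 16.5% for ATG4D, 14.1% for ATG4A and 13.7% for ATG4C. With the longest coding transcript it was 46.8%, 23.4%, 16.8% and 12.9%.

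The deviations of libraries bearing one number correlated at 0.08 over 16361 genes. This value cannot show whether such libraries were paired, because rIL-17B replicate 1 weighs heavily in it. The rIL-17B libraries were at least 2-fold apart in 16.9% of tested genes, and the PBS libraries in 0.636%. With the replicate block the fold change was 0.34 for ATG7 and -0.27 for ATG12, and the count of genes at an unadjusted p under 0.05 went from 226 to 173. The wide 95% intervals of the fits with all 4 libraries, such as -0.19 to 0.89 for ATG7, limit what can be said of members that did not pass.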

Other observations

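Among 8 transcription regulators of autophagy genes (TFEB, TFE3, MITF, FOXO1, FOXO3, ZKSCAN3, ATF4 and DDIT3), 0 passed an adjusted p of 0.05 (edgeR) and 0 had an unadjusted p under 0.05, with 2 higher and 6 lower and a median log2 fold change of -0.23 (rIL-17B minus PBS). Without rIL-17B replicate 2, 2 rose and 5 fell, beside 55.1% of all genes that passed in that fit, and without rIL-17B replicate 1 the count was 0 and the median -0.13. The genes of smallest p were MITF and TFE3. MITF showed 23.5 and 20.9 CPM without the cytokine, then 45.5 and 26.6 CPM with it, and TFE3 was at 97.5 and 102 CPM in the PBS pair, against 87.9 and 92.1 CPM after rIL-17B.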
